A study of Drosophila melanogaster with 12 samples.

Results

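The hemocyte and prophenoloxidase genes described here are 9 genes that mark the blood cells of Drosophila melanogaster or carry out their work: PPO1, PPO2, lz, He, Hml, NimC1, eater, Sr-CI and Pxn, of 11982 genes with a probe set of their own. Every probe set that the platform annotation assigns to 1 of these symbols alone was taken, which gave 10 probe sets of the 18769 tested, with 2 for Pxn and 1 for each other gene. The genes lie on chromosome arms 2R (PPO1, PPO2), 2L (He, NimC1, Sr-CI), 3L (Hml, Pxn), 3R (eater) and X (lz).

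The animals came from LHm, an outbred laboratory population reared at 25 °C, and fell into 6 groups: female larvae, male larvae, female pupae, male pupae, female adults and male adults. The larvae were in the third instar, and the labels give no age within the pupal or adult stage and no infection or wounding. Each group had 2 biological replicates, each of 10 pooled individuals, hybridised to Affymetrix Drosophila Genome 2.0 arrays, so 12 arrays were compared. All values below are the deposited log2 expression values, and they compare 1 probe set between groups, not different genes with each other.

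Fly blood cells, the hemocytes, are mostly plasmatocytes, macrophages that engulf bacteria and dying cells and lay down extracellular matrix. Crystal cells are the second class and store prophenoloxidases, the inactive form of the enzymes that make melanin at wounds. In larvae these cells circulate, sit in patches under the cuticle and form in the lymph gland, which breaks up at metamorphosis. Plasmatocytes then clear larval tissue, and adults carry cells from earlier stages. In bulk RNA of this kind, fewer cells of a type and less RNA per cell cannot be told apart.

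Markers of other tissues followed the labels. The summed level of 6 larval salivary glue genes was 17.42 to 17.51 (log2) in female larvae and 17.50 in male larvae, and at most 8.01 in any later group. The 11 measured accessory gland genes summed to 8.12 to 8.25 in female adults, against 17.25 to 17.28 in male adults, and the 8 ovary and yolk genes to 17.04 to 17.15 in female adults, against 8.79 to 8.91 in male adults. On the larval and female adult arrays, of animals without an accessory gland, single probe sets of these 11 genes read between 3.03 and 7.54, with a median of 4.10 and a 90th percentile of 5.55. Acp95EF gave the highest of these readings and did not follow the gland. Its means were 7.32 in female larvae, 7.44 in male larvae, 6.84 in female adults and 6.95 in male adults. The percentile was not computed without it. The table holds no detection calls, and all values of lz and the dimmer Pxn probe set and the later values of He lie below that percentile. The median of all probe sets on an array was 6.27 to 6.44 for females, against 6.73 to 6.81 for males. Female minus male differences over all probe sets nevertheless had medians above 0, namely 0.23 (larvae), 0.37 (pupae) and 0.21 (adults).

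**Figure D1:**
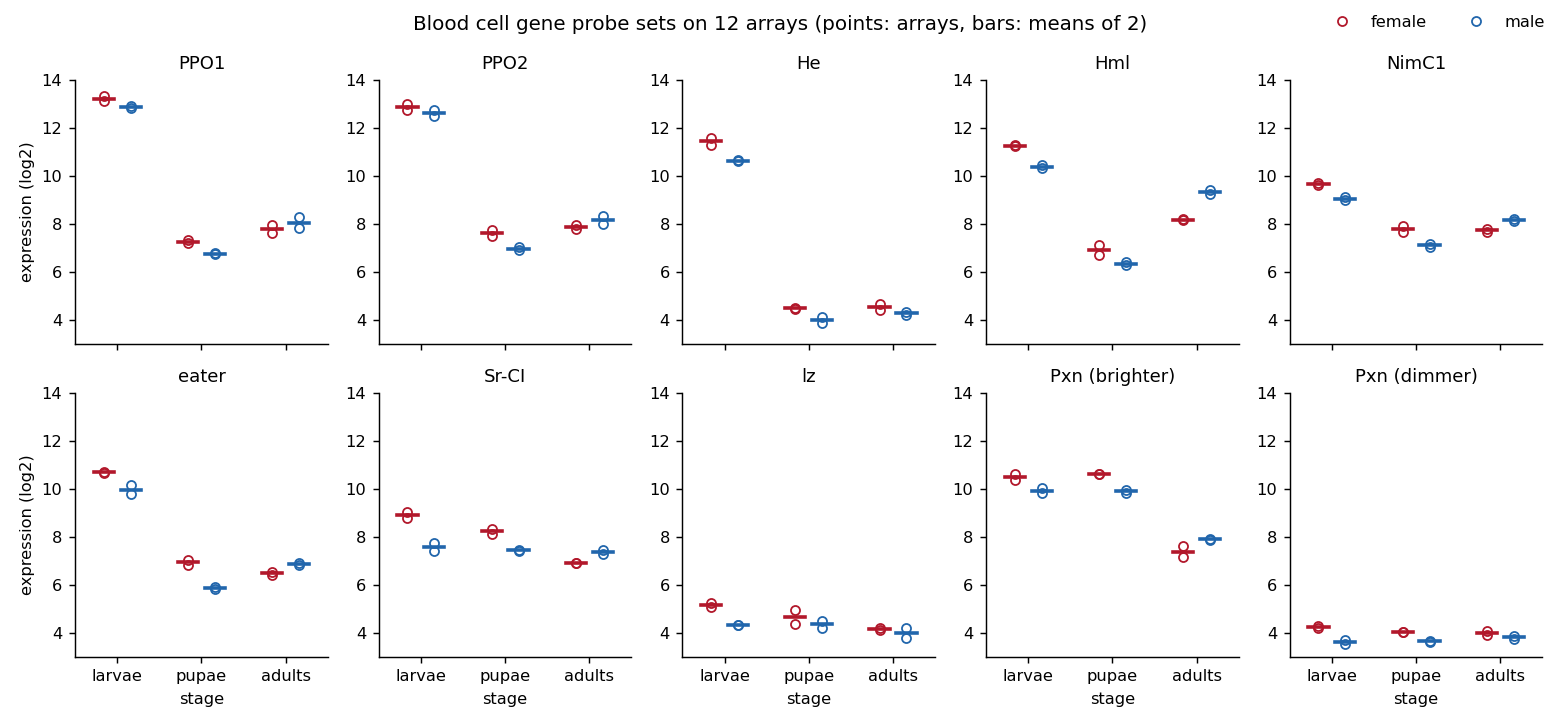
Expression (log2) of the 10 probe sets by stage, with 1 point per array, females left of males, and a bar at each mean of 2 arrays. PPO1, PPO2, He, Hml, NimC1 and eater are highest on the larval arrays, whereas the brighter Pxn probe set reads 9.83 to 10.60 in larvae and 9.84 to 10.62 in pupae.

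PPO1 and PPO2 encode the prophenoloxidases of crystal cells. PPO1 read 13.30 and 13.13 in female larvae, 12.90 and 12.84 in male larvae, 7.31 and 7.19 in female pupae, 6.76 and 6.74 in male pupae, 7.63 and 7.94 in female adults, and 7.83 and 8.27 in male adults. PPO2 read 12.97 and 12.74 in female larvae, 12.50 and 12.72 in male larvae, 7.75 and 7.48 in female pupae, 6.90 and 7.03 in male pupae, 7.78 and 7.94 in female adults, and 7.99 and 8.30 in male adults. For both genes the larval arrays stood far above all others, and male pupae were lowest. Female and male adults overlapped for PPO1 and did not overlap for PPO2. Across the 12 arrays the 2 genes had r = 0.9989, a description that rests largely on the gap between larvae and later stages.

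The fall of the prophenoloxidases between larvae and pupae passed in both sexes. For PPO1 the log2 difference, pupae minus larvae, was -5.96 ± 0.15 in females (SE, 62.3-fold lower, limma adjusted p = 3.08e-10) and -6.12 ± 0.15 in males (69.4-fold lower, adjusted p = 2.5e-10). For PPO2 it was -5.24 ± 0.15 in females (37.7-fold lower) and -5.65 ± 0.15 in males (50.1-fold lower). The steps from pupae to adults were much smaller. PPO1 was higher in adults by 0.53 ± 0.15 in females (adjusted p = 0.0134) and by 1.30 ± 0.15 in males (adjusted p = 3.22e-05). PPO2 was higher by 1.18 ± 0.15 in males (adjusted p = 5.38e-05), and its difference of 0.25 ± 0.15 in females did not pass (adjusted p = 0.202). The call of PPO1 in females was lost without female pupae replicate 2 (adjusted p = 0.0675), without female adults replicate 2 (adjusted p = 0.115) and after quantile normalization (adjusted p = 0.0546). Adults of both sexes remained far below larvae, with PPO1 at -5.43 ± 0.15 in females and -4.82 ± 0.15 in males.

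The gene lz encodes Lozenge, a RUNX transcription factor that specifies crystal cells and also acts in the eye. Its probe set read 5.05 and 5.24 in female larvae and 4.31 and 4.33 in male larvae. It read 4.97 and 4.37 in female pupae, 4.21 and 4.48 in male pupae, 4.13 and 4.20 in female adults, and 3.79 and 4.20 in male adults. Only the female larvae lay above every other array, and groups next to each other mostly overlapped. The step to pupae did not pass in females (-0.48 ± 0.20, adjusted p = 0.0694) or males (0.03 ± 0.20, adjusted p = 0.934), with 95% intervals of -0.92 to -0.05 and -0.41 to 0.46. In females it passed after quantile normalization (adjusted p = 0.0444), after recentring of the arrays (adjusted p = 0.0373) and without female pupae replicate 1 (-0.78, adjusted p = 0.00639). Female adults were lower than female larvae by a log2 difference of -0.98 ± 0.20 (adjusted p = 0.00138).

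PPO3, the paralogue made by lamellocytes, was chosen from the melanization list after its values were seen. It read between 4.70 and 5.65 on all 12 arrays and passed none of the 6 stage comparisons (largest difference -0.30 ± 0.19, adjusted p = 0.246). Of these 12 values 10 lay below the background percentile of 5.55, so a change of PPO3 could be missed.

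The surface proteins and receptors of plasmatocytes form the second group. He encodes Hemese, a glycosylated transmembrane protein of the hemocyte surface, and had the widest span of all members. Its probe set read 11.57 and 11.30 in female larvae, 10.61 and 10.65 in male larvae, 4.46 and 4.49 in female pupae, 4.13 and 3.87 in male pupae, 4.42 and 4.65 in female adults, and 4.20 and 4.33 in male adults. The larval arrays were far above the rest, and female pupae and female adults overlapped. From larvae to pupae He fell by 6.96 ± 0.13 in females (125-fold, adjusted p = 4.33e-11) and fell by 6.63 ± 0.13 in males (99.0-fold, adjusted p = 5.02e-11). It did not pass between pupae and adults in females (0.06 ± 0.13, adjusted p = 0.755) or in males (0.26 ± 0.13, adjusted p = 0.122). Since the later values are near background, these folds can understate the change.

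NimC1 and eater encode receptors through which plasmatocytes bind and engulf bacteria, both built from Nimrod-type EGF repeats. NimC1 read 9.70 and 9.63 in female larvae, 9.12 and 8.97 in male larvae, 7.66 and 7.93 in female pupae, 7.05 and 7.14 in male pupae, 7.67 and 7.80 in female adults, and 8.12 and 8.18 in male adults. Its step from larvae to pupae was -1.87 ± 0.11 in females (3.67-fold lower) and -1.95 ± 0.11 in males (3.86-fold lower), the smallest among the 6 genes that fell in both sexes. For eater the values were 10.72 and 10.67 in female larvae, 10.14 and 9.78 in male larvae, 6.82 and 7.05 in female pupae, 5.90 and 5.83 in male pupae, 6.42 and 6.54 in female adults, and 6.89 and 6.83 in male adults. Larvae were again highest and did not overlap any later group. The step to pupae was -3.76 ± 0.13 in females (13.6-fold lower) and -4.10 ± 0.13 in males (17.1-fold lower).

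The steps of both receptors from pupae to adults differed between the sexes, with adjusted p = 0.00016 for NimC1 and 5.76e-05 for eater in the interaction test. In males NimC1 rose by 1.05 ± 0.11 from pupae to adults (adjusted p = 1.55e-05) and eater by 0.99 ± 0.13 (adjusted p = 6.66e-05). In females NimC1 did not pass (-0.05 ± 0.11, adjusted p = 0.726) and eater fell by 0.45 ± 0.13 (adjusted p = 0.0127). The eater call in females was lost after quantile normalization (adjusted p = 0.0846), after array-median centring (adjusted p = 0.0958), without female pupae replicate 2 (adjusted p = 0.0933) and without female adults replicate 1 (adjusted p = 0.0787).

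Sr-CI, a scavenger receptor that binds bacteria, followed another course. It read 9.04 and 8.78 in female larvae, 7.41 and 7.75 in male larvae, 8.11 and 8.33 in female pupae, 7.43 and 7.46 in male pupae, 6.92 and 6.91 in female adults, and 7.26 and 7.44 in male adults. In females each stage lay below the one before it without overlap, whereas the 3 male groups overlapped. In females the step from larvae to pupae was -0.69 ± 0.14 (adjusted p = 0.00215) and that from pupae to adults -1.31 ± 0.14 (adjusted p = 1.22e-05). In males the same steps were -0.14 ± 0.14 (adjusted p = 0.466) and -0.09 ± 0.14 (adjusted p = 0.637).

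Hml and Pxn encode secreted proteins. Hemolectin, the product of Hml, is a large clotting protein made by plasmatocytes. Hml read 11.28 and 11.23 in female larvae, 10.45 and 10.30 in male larvae, 6.69 and 7.10 in female pupae, 6.39 and 6.28 in male pupae, 8.14 and 8.19 in female adults, and 9.24 and 9.41 in male adults. No 2 groups overlapped, and male adults ranked directly below the larvae. Hml was -4.36 ± 0.14 from larvae to pupae in females (20.6-fold lower) and -4.04 ± 0.14 in males (16.5-fold lower). It then rose in adults by 1.27 ± 0.14 in females (2.41-fold, adjusted p = 1.18e-05) and by 2.99 ± 0.14 in males (7.96-fold, adjusted p = 1.43e-08).

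Pxn encodes peroxidasin, a peroxidase that cross-links collagen IV in basement membranes. Its brighter probe set read 10.60 and 10.38 in female larvae, 10.02 and 9.83 in male larvae, 10.62 and 10.62 in female pupae, 9.84 and 9.95 in male pupae, 7.14 and 7.60 in female adults, and 7.89 and 7.89 in male adults. Larvae and pupae of a sex lay close together, and the adults lay below both. Between pupae and larvae the difference was 0.13 ± 0.15 in females (95% interval -0.20 to 0.46) and -0.03 ± 0.15 in males (-0.36 to 0.30), and neither passed. From pupae to adults Pxn fell by 3.25 ± 0.15 in females (9.53-fold, adjusted p = 1.2e-08) and fell by 2.01 ± 0.15 in males (4.02-fold, adjusted p = 6.79e-07). The dimmer Pxn probe set read between 3.55 and 4.27 on all arrays, passed in no step between stages, and did not show this fall. The table does not say which transcripts each probe set reads.

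**Figure D2:**
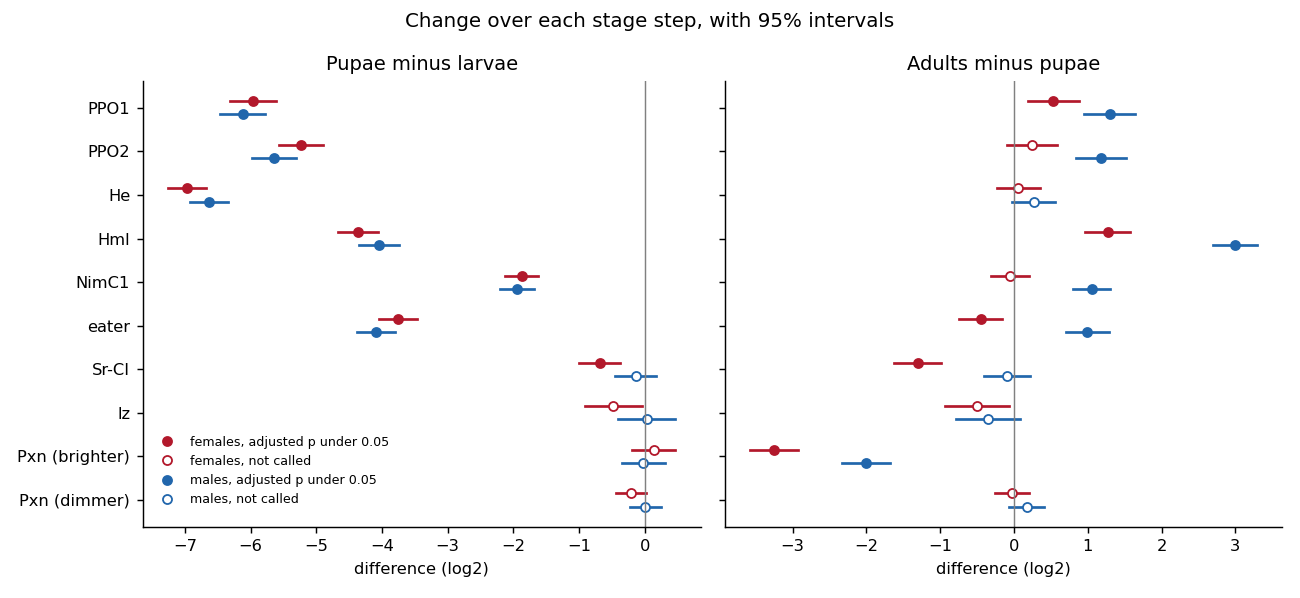
Log2 difference of each probe set from larvae to pupae (left) and from pupae to adults (right), females above males, with 95% intervals and filled points where the adjusted p was under 0.05. The 6 probe sets that fell in both sexes on the left are those of PPO1, PPO2, He, Hml, NimC1 and eater, and Hml has the largest rise on the right.

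Counted over the 10 probe sets, 7 were lower in female pupae than in female larvae, where 19.6% of all probe sets were called lower, and 6 were lower in male pupae than in male larvae (21.2% of all). The median difference of the members was -2.82 in females and -3.00 in males, against 0.03 and 0.00 over all probe sets. In male adults 5 members were higher than in male pupae and 1 was lower (18.8% and 32.2% of all). In female adults 2 were higher than in female pupae and 3 lower (27.2% of all in each direction), a share that does not stand far from the background. Compared with larvae directly, 9 members were lower in female adults (24.3% of all) and 7 in male adults (32.2% of all). The steps share the pupal or larval arrays and are not independent. Salivary glue genes fell over the same step from larvae to pupae, while the 3 measured of 6 fat body genes summed to 16.43 to 16.52 in female pupae against 16.74 to 16.78 in female larvae. Single fat body values were 14.69 to 15.03 in female pupae and 15.12 to 15.22 in female larvae. The highest values on those arrays were 15.31 to 15.43, so a change of these 3 genes could be understated. The part of such shifts in tissue make-up in these results was not tested.

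The sexes were then compared within each stage. In female larvae 8 of the 10 probe sets were higher than in male larvae, where 27.1% of all probe sets were called higher. Sr-CI had the largest difference, 1.33 ± 0.14 (2.51-fold, adjusted p = 3.52e-05), followed by Hml at 0.88 ± 0.14 (adjusted p = 0.000648), lz at 0.83 ± 0.20 (adjusted p = 0.00908) and He at 0.81 ± 0.13 (adjusted p = 0.000955). Both lz and the dimmer Pxn probe set are among the 8, yet they read below the background percentile of 5.55 in both sexes. The prophenoloxidases did not pass, PPO1 at 0.35 ± 0.15 (adjusted p = 0.0966) and PPO2 at 0.24 ± 0.15 (adjusted p = 0.214). After array-median centring all 10 probe sets were higher in female larvae, with PPO1 at 0.72 (adjusted p = 0.00152) and PPO2 at 0.61 (adjusted p = 0.0028). The median over all probe sets was then 0.60, so PPO2 stood at the general shift and PPO1 little above it. After recentring, which subtracts from each array its median deviation from the probe set means, 7 members were higher and the brighter Pxn probe set was not (0.38, adjusted p = 0.0956). The median over all probe sets was then 0.04. Shares of all probe sets called under these scalings are not given here. Hybridisation controls, which are added to every sample, were also higher on the female larval arrays, by a median of 0.43.

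In female pupae 9 members were higher than in male pupae, at a background of 51.9%. Of these, He and the dimmer Pxn probe set read below the background percentile of 5.55 in both sexes. The largest differences were those of eater (1.07 ± 0.13, 2.09-fold, adjusted p = 6.87e-05) and Sr-CI (0.78 ± 0.14, adjusted p = 0.000982). After recentring 4 members passed, and PPO1, PPO2, He, Hml and the dimmer Pxn probe set no longer did (0.12 to 0.38). The median over all probe sets was then 0.10, against 0.37 in the deposited values. The 51.9% holds for the deposited values only, and the share after recentring is not given here. The controls differed by a median of 0.73 in pupae, against the members' median of 0.61. Their part in the pupal differences was not tested beyond the recentring.

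**Figure D3:**
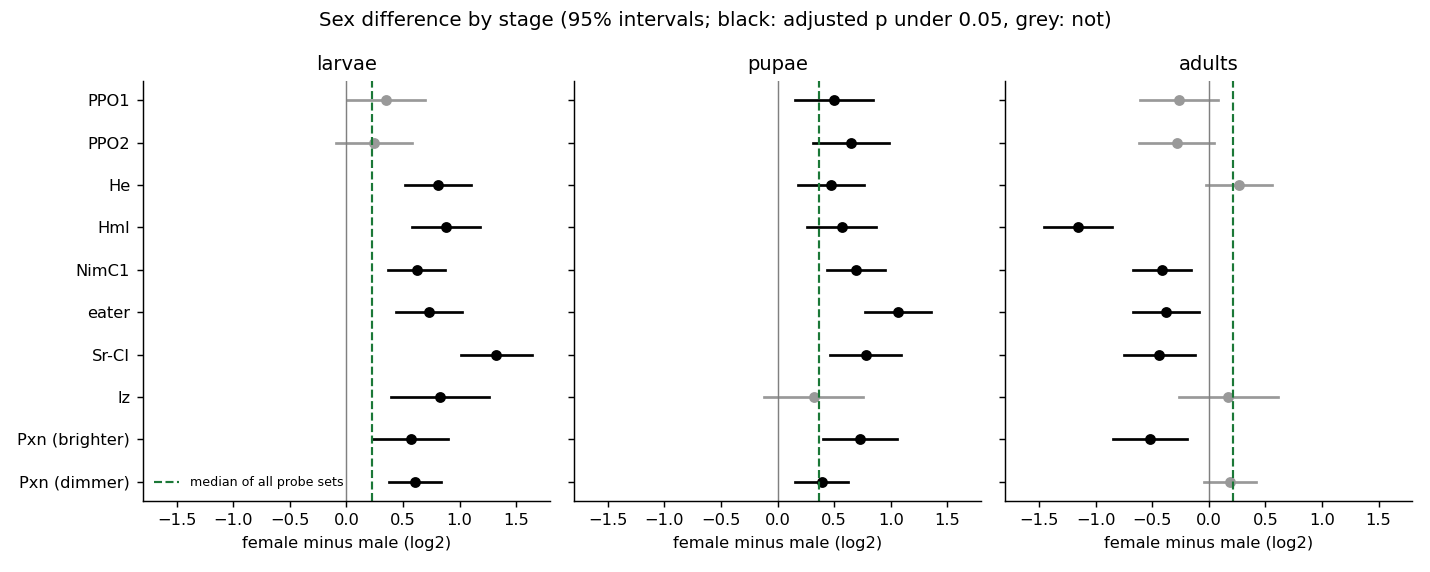
Female minus male difference (log2) of each probe set in larvae, pupae and adults, with 95% intervals, and a dashed line at the median of all probe sets. All points lie right of that line in larvae and all but He lie left of it in adults.

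In the deposited values 5 members were lower in female than in male adults, at a background of 26.6%, although 3 of them (NimC1, eater and Sr-CI) changed sign under another scaling. The members' median was -0.33 against 0.21 over all probe sets. Hml had a mean of 8.17 ± 0.03 in female adults and 9.32 ± 0.12 in male adults (SD, n = 2 each), a difference of -1.16 ± 0.14 (2.23-fold, limma adjusted p = 1.73e-05). The others were smaller: the brighter Pxn probe set at -0.52 ± 0.15 (adjusted p = 0.00969), Sr-CI at -0.44 ± 0.14 (0.0181), NimC1 at -0.41 ± 0.11 (0.00851) and eater at -0.38 ± 0.13 (0.025). PPO1 (-0.26 ± 0.15, adjusted p = 0.157) and PPO2 (-0.28 ± 0.15, adjusted p = 0.12) did not pass in the deposited values. After recentring both were called lower (-0.52, adjusted p = 0.0111, and -0.54, adjusted p = 0.00809), and PPO2 also after quantile normalization (adjusted p = 0.0368). After array-median centring both turned sign and did not pass (0.21 and 0.19). These smaller calls were fragile. Without female adults replicate 1 only Hml was called, and without male adults replicate 2 the count was 3. The scaling also set the counts, with 7 lower after recentring, 4 lower after quantile normalization, and 3 higher (He, lz and the dimmer Pxn probe set) and 1 lower after array-median centring. The deposited adult values of these 3 lie below the background percentile of 5.55. Their differences after array-median centring were 0.74, 0.64 and 0.66, near the median of 0.68 over all probe sets. That median was -0.04 after recentring and 0.21 after quantile normalization. Shares of all probe sets called under these scalings are not given here. NimC1, eater and Sr-CI changed sign under array-median centring and eater also under quantile normalization, whereas Hml was lower in female adults under all 4 scalings.

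The change of the sex difference between stages was tested directly. Between larvae and pupae none of the 10 members passed (limma, 17.5% of all probe sets called), and 1 had an unadjusted p under 0.05. Between pupae and adults the sex difference of 7 members moved towards males, at a background of 25.5% in that direction. The change was -1.72 ± 0.19 for Hml (adjusted p = 2.11e-05), -1.45 ± 0.18 for eater (5.76e-05), -1.25 ± 0.21 for the brighter Pxn probe set (0.000431), -1.22 ± 0.20 for Sr-CI (0.000359), -1.11 ± 0.16 for NimC1 (0.00016), -0.94 ± 0.21 for PPO2 (0.0034) and -0.76 ± 0.22 for PPO1 (0.0129). He (-0.21 ± 0.19), lz (-0.14 ± 0.28) and the dimmer Pxn probe set (-0.20 ± 0.15) did not pass. The count was 7 under each of the 4 scalings, and 6 without female adults replicate 1, where PPO1 was lost. The 18 hybridisation control probe sets changed over the same step by a median of -0.75 (-0.98 to -0.08), a size near that of PPO1 and PPO2, and the median over all probe sets was -0.10. Ovary and yolk transcripts in female adults and accessory gland transcripts in male adults differed over the same step, and their part was not tested.

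**Figure D4:**
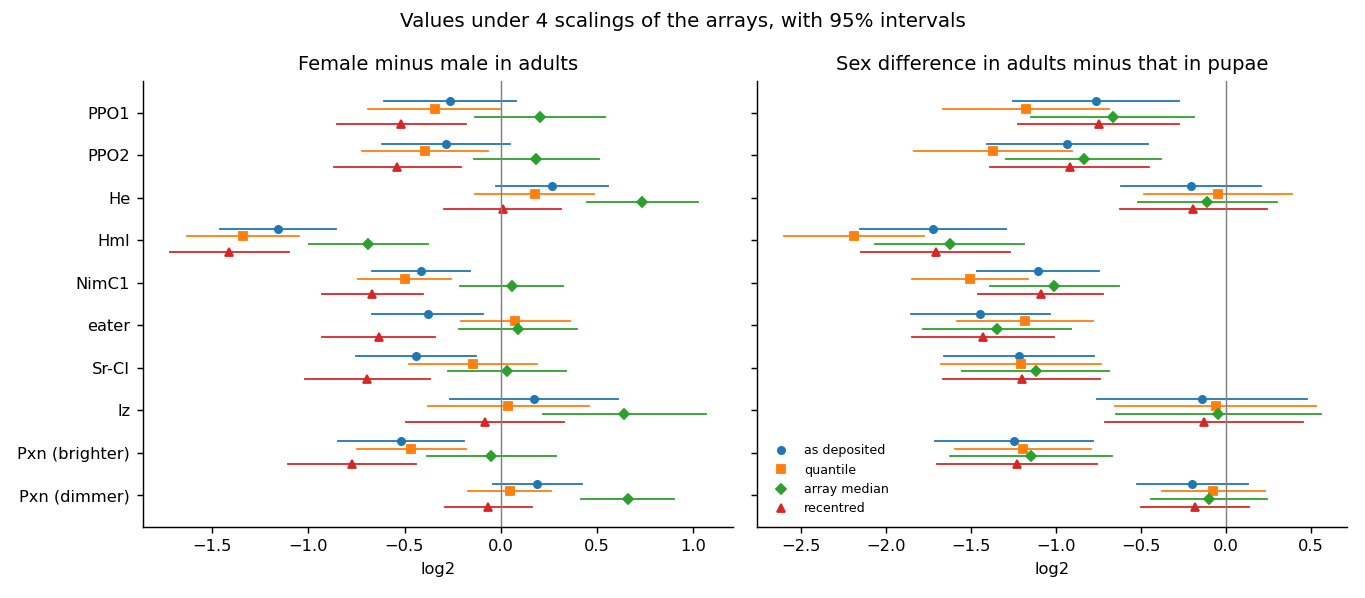
Female minus male difference in adults (left) and its change from pupae to adults (right) under 4 scalings of the arrays, with 95% intervals. On the left NimC1, eater and Sr-CI, called in the deposited values, lie above 0 after array-median centring, and on the right the 7 called probe sets stay below 0 in all of them.

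He and NimC1 are direct neighbours on 2L in the RefSeq annotation of Release 6, with He between NimB5 and NimC1, inside a run of Nimrod genes. Nimrod proteins are receptors or secreted proteins, some of them of hemocytes, and the B, C and A families sit in this run. Which cells gave the readings of these genes in whole animals was not tested. The genes around He were examined after its values were seen. Of the 11 genes, all measured, 8 were lower in female pupae than in female larvae and 2 were higher (19.6% and 25.7% of all probe sets). In males 8 were lower and 1 higher (21.2% and 27.2% of all). The sizes ranged widely. In females the difference was -6.96 for He, -1.87 for its neighbour NimC1 and -2.70 ± 0.15 for NimB5. NimA was higher in female pupae by 0.64 ± 0.16 (adjusted p = 0.00583). NimC4, whose product binds dying cells for engulfment, was higher in pupae of both sexes. It read 11.62 and 12.15 in female pupae against 7.29 and 7.31 in female larvae, and 11.87 and 11.68 in male pupae against 6.77 and 6.49 in male larvae. That is a rise of 4.58 ± 0.20 in females (adjusted p = 1.27e-08) and 5.14 ± 0.20 in males (adjusted p = 5.64e-09), followed by steps of -4.27 ± 0.20 and -4.10 ± 0.20 to adults. NimC2 fell at both steps and read 5.23 and 5.40 in female adults and 5.30 and 5.23 in male adults. In male adults 5 of the 11 genes were higher than in male pupae and 5 were lower (18.8% and 32.2% of all probe sets). Among the higher ones were NimB2 (2.07 ± 0.12), NimB5 (2.10 ± 0.15) and NimC1. In female adults 6 were lower than in female pupae (27.2% of all), among them NimB3 (-2.43 ± 0.11) and NimB4 (-2.44 ± 0.14), and 1 was higher, NimC3 (2.60 ± 0.26).

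**Figure D5:**
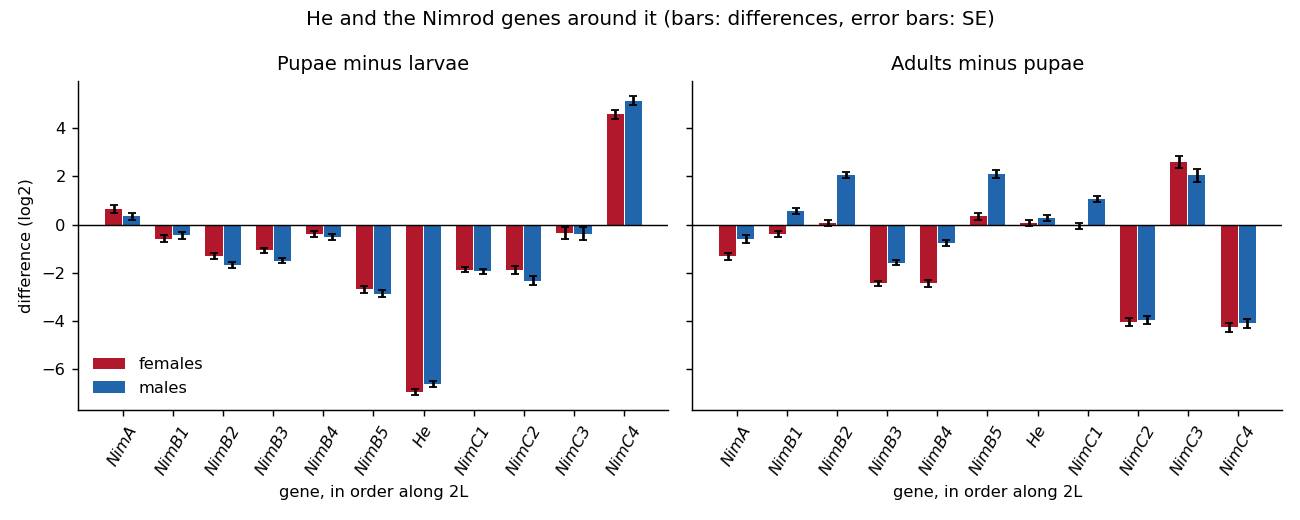
Log2 difference of He and the 10 Nimrod genes in their order along 2L, from larvae to pupae (left) and from pupae to adults (right), with females left of males and SE as error bars. He has the deepest fall and NimC4 the largest rise on the left.

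Companion genes, none of them a member, were grouped by role. Of the 16 measured engulfment and scavenger receptors 9 were lower and 2 higher in female pupae than in female larvae (list median -0.49, against 0.03 over all probe sets), and 11 were lower and 2 higher in males. Of the 13 melanization genes 7 were lower and 2 higher in females, and 8 were lower and 3 higher in males. Over all probe sets 19.6% were lower and 25.7% higher in females, and 21.2% were lower and 27.2% higher in males. Ddc, which makes dopamine for melanin and cuticle, fell by 5.34 ± 0.21 in females (adjusted p = 5.69e-09) and fell by 6.11 ± 0.21 in males. The 12 genes of extracellular matrix and clotting went mostly the other way: 9 were higher and 3 lower in female pupae than in female larvae. All 12 were then lower in female adults than in female pupae (27.2% of all probe sets), with a list median of -2.52 against -0.04 over all. In males 8 were lower in adults (32.2% of all), with a median of -1.33 against -0.07. LanB2, a laminin chain, fell by 3.59 ± 0.11 in females and fell by 3.11 ± 0.11 in males. Between pupae and adults the sex difference of 9 of these 12 genes moved towards males and of 1 towards females, where 25.5% and 26.1% of all probe sets did so. Of the 16 receptors 9 moved towards males and 2 towards females, including pes, a class B scavenger receptor (1.99 ± 0.15, adjusted p = 1.39e-06).

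Genes that control blood cell formation were the next list. Of 12 measured, 4 were higher and 2 lower in female pupae than in female larvae, and 2 and 2 in males. Over all probe sets 25.7% were higher and 19.6% lower in females, and 27.2% and 21.2% in males. The counts of this list do not stand far from that background. Stat92E, the transcription factor of JAK/STAT signalling, was lower by a log2 difference of -0.80 ± 0.10 in females and -0.69 ± 0.10 in males. The GATA factor gene srp, needed for all blood cells and also active in fat body, was named after its values were seen. It did not pass from larvae to pupae (-0.10 ± 0.15 in females, -0.26 ± 0.15 in males), and its step from pupae to adults was -1.16 ± 0.15 in females and -1.25 ± 0.15 in males. In female adults 7 of the 12 were higher than in male adults and 2 were lower (39.0% and 26.6% of all probe sets). The 2 largest differences were those of Bgb, the partner subunit of RUNX factors (2.25 ± 0.11), and ush, a cofactor of GATA factors (1.88 ± 0.13).

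Of 6 lamellocyte genes 1 was higher and 4 lower in male adults than in male pupae (18.8% and 32.2% of all probe sets). In females 1 was higher and 3 lower in adults than in pupae (27.2% of all in each direction). The higher one in each sex was atilla, a surface antigen of that cell type. It went against its list, whose median difference was -0.35 in females and -0.68 in males. It read 10.64 and 10.74 in female adults, against 9.48 and 9.79 in female pupae and 10.08 and 9.50 in female larvae. It read 11.90 and 11.87 in male adults, against 8.54 and 8.72 in male pupae and 8.75 and 8.82 in male larvae. The rise from pupae was 1.05 ± 0.18 in females (adjusted p = 0.000389) and 3.26 ± 0.18 in males (adjusted p = 5.58e-08). Its female minus male difference changed by -2.21 ± 0.25 between pupae and adults (adjusted p = 2.28e-05).

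The genes with the most similar course over the 12 arrays were sought among 10713 probe sets that varied by at least 1 log2 unit between groups. Closest to PPO1 were CG9903 (r = 0.997), Muc55B and CG11854 (both 0.995). Closest to He were CG11349, CG14258 (both 0.999) and CG32249 (0.998). For PPO2 the closest were CG8492, CG9903 (both 0.996) and CG9192 (0.995), for NimC1 CG10467 (0.989), Idgf4 (0.988) and Naprt (0.986), and for eater CG46491, CG31741 and CG31464 (all 0.992). Such a larval course was common, with 254 probe sets at r over 0.95 to PPO1 and 268 to He (2.37% and 2.50%). For Hml the closest were CG1143 (0.995), Cyp12e1 (0.991) and CG17570 (0.990), and for Pxn unk (0.994), Cda4 (0.993) and nom (0.991). Sr-CI and lz had no match at r over 0.95. Closest to Sr-CI were et (0.943), Cyp6d4 (0.940) and Spase25 (0.930), and closest to lz were Doc3 (0.940), CG5225 (0.901) and CG32187 (0.896). Between members, Pxn and Hml had r = 0.033 and He and eater r = 0.985. All of these points share the same arrays and stages, so the values describe likeness only.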

How the data were processed

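Per the submitters' processing notes the authors' deposited log2 values come from RMA, which corrects background, normalizes arrays and summarises probes. The deposited arrays nevertheless do not share a common distribution. Their medians were 6.27 to 6.44 for females and 6.73 to 6.81 for males. The RMA version and settings were not given in the sources used here. Of 18952 probe sets, 183 controls were left out, and 18769 were tested. Genes were named from the platform annotation and RefSeq, and 13647 probe sets had 1 gene, 402 several, and 4720 were unnamed. For companions the probe set with the highest mean was used. Promoter motifs were not searched here.

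The 12 arrays entered 1 fit in limma (version 3.58.1, R 4.3.3), with a mean per group, 6 residual and 4.10 prior degrees of freedom, and 11 comparisons. Calls were at a Benjamini-Hochberg adjusted p under 0.05 over all probe sets. Values after ± are SE unless SD is stated, and 95% intervals use the same fit. The test was tried on simulated data: for female minus male in larvae, over 18769 probe sets, 82% of changes of 1 log2 unit and 99% of changes of 2 were recovered. There were 7 false calls. Recovery of smaller changes, such as the sex differences of PPO1 and PPO2, is not given by these sizes. The number of arrays limits the precision.

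Members, lists and alternatives were chosen with earlier results of these data known. All members were named, up to 2 called companions per list and comparison with the largest difference, and the 3 genes most like each member. Others are said to be named after their values were seen. The alternatives were quantile normalization, array-median centring, recentring, a filter on means under 5, a fit of the compared groups, the replicate number as a block, robust eBayes with a trend, and each array left out.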

Additional observations from a re-analysis of the deposited data

Results flagged for a closer look

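The sex difference changed between pupae and adults, by the interaction term of the limma fit, for 7 of the 10 probe sets. All 7 moved towards males, as did 25.5% of all probe sets, while 26.1% of all moved towards females. For Hml the female minus male difference was -1.16 in adults and 0.57 in pupae, a change of -1.72. For eater it was -0.38 and 1.07, a change of -1.45, and for the brighter Pxn probe set -0.52 and 0.73, a change of -1.25. Sr-CI (-0.44 and 0.78) changed by -1.22 and NimC1 (-0.41 and 0.69) by -1.11. PPO2 (-0.28 and 0.65) changed by -0.94 and PPO1 (-0.26 and 0.50) by -0.76. Of these 7, PPO1 was no longer called without female adults replicate 1 (-0.61, adjusted p = 0.0545). The hybridisation controls changed over the same step by a median of -0.75, and their part in these changes was not tested beyond the rescalings.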

How the results depend on the processing

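Counts of called members stayed within 1.5 times the reported ones in most settings. After recentring 4 members differed between the sexes in pupae, in place of 9. After quantile normalization 3 passed from pupae to adults in females, in place of 5, and 2 in the change of the sex difference between larvae and pupae, in place of 0. Shares of all probe sets called under these scalings are not given here. For the sex difference in adults eater was 0.077 after quantile normalization, not called, and the cause of that change was not tested. After array-median centring NimC1 was 0.058, eater 0.091 and Sr-CI 0.032, none of them called. This centring adds the same amount to every female minus male difference in adults. The median over all probe sets moved with them, from 0.21 to 0.68, and 1 member lay above that median in both settings. When each array was left out in turn the counts ranged from 7 to 8 (sex in larvae), 7 to 10 (pupae), 1 to 5 (adults), 0 to 1 (change of the sex difference, larvae to pupae) and 6 to 7 (pupae to adults). They ranged from 7 to 8 (larvae to pupae in females), 4 to 6 (pupae to adults in females) and 9 to 10 (larvae to adults in females), and stayed at 6, 6 and 7 in males. A lone array was then assumed to vary like the other groups. The labels do not say that replicate numbers pair groups, and deviations of same-numbered arrays correlated between -0.076 and 0.082 over 15 pairs of groups. With the replicate block the members' counts were the reported ones in all 11 comparisons (8, 9 and 5 for sex in larvae, pupae and adults), and 7058 probe sets in all differed between larvae of the 2 sexes, against 7318 without it. The filter on low means removed lz and the dimmer Pxn probe set. Low signal limits what can be said of lz, He after larvae and that probe set.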

Other observations

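Cyp28a5, a cytochrome P450 gene that lies between NimC1 and NimC2, was named after its values were seen. It was lower in pupae than in larvae by a log2 difference of -2.23 ± 0.10 in females (limma adjusted p = 2.51e-08) and -1.77 ± 0.10 in males (adjusted p = 1.71e-07). In adults it rose by 0.39 ± 0.10 in females (adjusted p = 0.00869) and by 2.62 ± 0.10 in males (adjusted p = 5.16e-09). Its mean was 9.57 in male adults, above the 8.72 of male larvae, and 8.05 in female adults, below the 9.90 of female larvae.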
